A study of Caenorhabditis elegans with 6 samples.

Results

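The heme-responsive hrg genes hrg-1 to hrg-7 of Caenorhabditis elegans are 7 genes, listed by name, and a probe set annotated to 1 of them alone was found for 4, namely hrg-1, hrg-3, hrg-4 and hrg-7. These 4 genes have 1 probe set each, out of 17118 genes named on the array. No probe set of the annotation used here named hrg-2, hrg-5 or hrg-6, so those 3 genes were not analysed here. The list is by name, but it was chosen by a measured value too, the low hrg-7 signal of mutant against wild-type arrays in the comparison below. The differences of the 4 genes between genotypes are therefore a description with standard errors, and no test of them is read as support. Transcript levels were measured in RNA from whole worms on 6 Affymetrix arrays, 3 of wild-type and 3 of zip-3(gk3164), a mutant allele of a bZIP transcription factor gene whose lesion the labels do not describe. Worms of both genotypes were bleach-synchronized, grown in liquid culture, fed control RNAi bacteria and taken at L4, the last larval stage. The labels call the 3 replicates of each genotype biological. In whole-worm RNA, fewer cells of a type and less RNA per cell cannot be told apart.

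Caenorhabditis elegans cannot make heme and takes it from the bacteria it eats. HRG-4 imports heme across the apical membrane of intestinal cells, HRG-1 moves it out of lysosome-related compartments into the cytosol of those cells, and HRG-5 and HRG-6 are relatives of both. HRG-3 is a small secreted protein that carries maternal and intestinal heme to embryos and other tissues, HRG-2 is a membrane protein of the epidermis, and HRG-7 is a secreted aspartic protease-like protein that signals heme status from the intestine to neurons. Messages of hrg-1, hrg-2, hrg-3, hrg-4 and hrg-7 are known to be high when heme is scarce. The 4 genes measured here lie on 3 chromosomes, hrg-1 on X, hrg-4 on IV, and hrg-3 and hrg-7 on V. In the WBcel235 gene table hrg-4 stands between hrg-5 and hrg-6 with no other coding gene among them.

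The 4 measured hrg genes all had lower mean signals in zip-3(gk3164) than in wild-type. Their log2 differences, mutant minus wild-type, were -3.98 for hrg-3, -2.53 for hrg-7, -2.05 for hrg-1 and -1.47 for hrg-4. For hrg-1, hrg-3 and hrg-7 every mutant array lay below every wild-type array, and for hrg-4 the genotypes overlapped by 1 pair of arrays. Mutants below wild-type without overlap were found for 6.59% of all 22548 probe sets that were not array controls, and for 8.8% of the 13529 that were bright enough to be tested. The filter asked for a mean log2 value over the 6 arrays at or above the 40th percentile, which is a signal of 68.7. hrg-1, hrg-4 and hrg-7 passed it and hrg-3 did not. In the fit over all tested probe sets (limma), 1 of these 3 genes, hrg-7, was called lower at an adjusted p of 0.05, where 0.0148% of tested probe sets were called lower. That call held in 4 of 16 alternatives, and leaving out single arrays gave 0 to 1360 probe sets called lower. Nothing is read from the count of hrg genes, because they were listed with this comparison known. Nor is anything read from the call of hrg-7, whose low signal in this same comparison was used to choose the list.

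hrg-7 encodes the intestinal signal. Its signals were 9441, 10115 and 6119 in wild-type arrays 1, 2 and 3 and 2239, 1291 and 1059 in mutant arrays 1, 2 and 3. The lowest wild-type array was 2.73 times the highest mutant array, so the groups were apart. Wild-type arrays had a mean of 8559 ± 2139 and mutant arrays of 1530 ± 625 (SD, n = 3 each), and the log2 difference was -2.53 ± 0.32 (SE). In the fit, 0.0665% of tested probe sets had a lower difference. Leaving out 1 array at a time moved the hrg-7 difference between -2.84 and -2.30.

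hrg-1 encodes the heme transporter of intestinal endosomes and lysosomes. Its signals were 841.8, 1283 and 527.7 in the wild-type arrays and 256.0, 212.8 and 148.2 in the mutant arrays. The groups did not overlap, and the lowest wild-type array was 2.06 times the highest mutant array. The means were 884.2 ± 379.4 and 205.7 ± 54.2 (SD, n = 3 each), with a log2 difference of -2.05 ± 0.36 (SE). A lower difference was found for 0.421% of tested probe sets. The hrg-1 probe set carries the _s_at suffix, which marks probes shared between transcripts, so another transcript can add to its signal.

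hrg-4 encodes the importer at the gut lumen. Its wild-type signals were 378.0, 375.9 and 122.4 and its mutant signals 143.5, 74.4 and 77.1. Wild-type array 3 lay below mutant array 1, so the genotypes overlapped, and the wild-type arrays differed among themselves by up to 3.09-fold. The means were 292.1 ± 147.0 and 98.3 ± 39.1 (SD, n = 3 each), and the log2 difference was -1.47 ± 0.50 (SE). Lower differences were found for 3.24% of tested probe sets. Without wild-type array 3 the hrg-4 difference was -2.01, and without wild-type array 1 it was -1.19, so the size of this difference depends on single wild-type arrays.

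hrg-3 encodes the secreted heme chaperone. Its signals were 95.6, 125.5 and 35.6 in wild-type and 15.7, 3.18 and 2.19 in the mutant. All 3 mutant arrays and wild-type array 3 lay under the filter signal, where MAS5 values are noisy, and no detection calls were used here. The mutant signals themselves spread over 7.15-fold. The log2 difference of -3.98 ± 0.86 (SE) came from the fit without a filter. With 16 added to every signal before the log it was -2.07. The size of the hrg-3 difference is therefore poorly measured, and so is the order of mutant arrays 2 and 3.

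**Figure D1:**
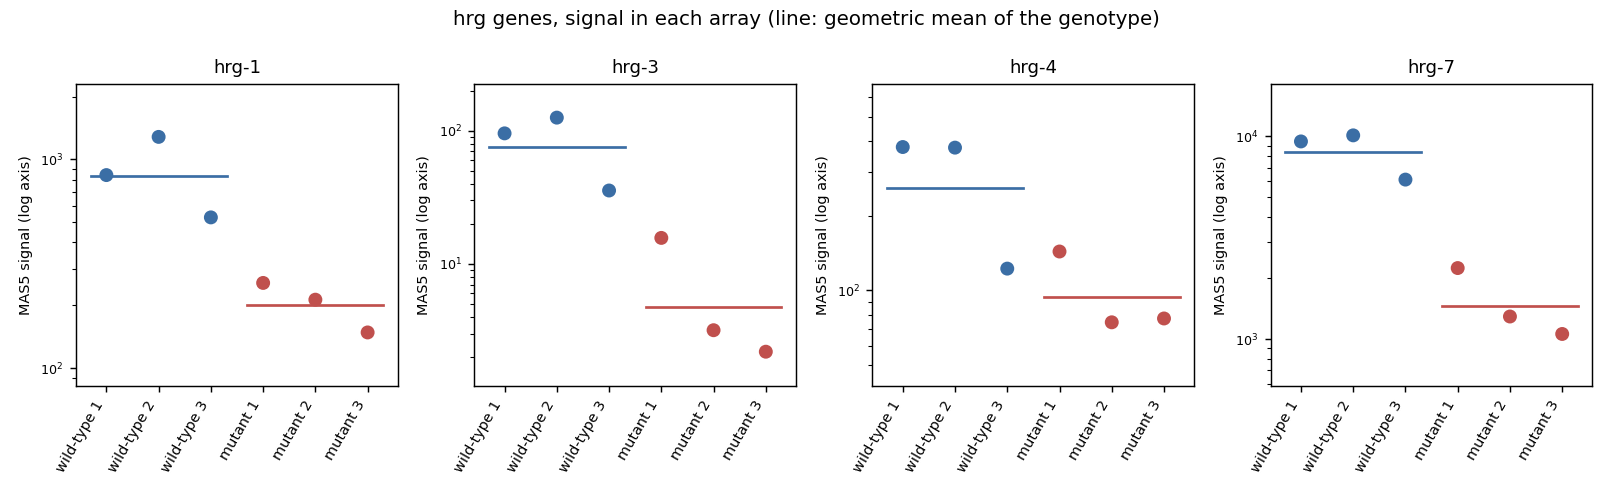
MAS5 signal (log axis) of hrg-1, hrg-3, hrg-4 and hrg-7 in each of the 3 wild-type (blue) and 3 mutant (red) arrays, with a line at the geometric mean of each genotype. Mutant points lie below all wild-type points for hrg-1, hrg-3 and hrg-7, and for hrg-4 wild-type array 3 at 122.4 lies below mutant array 1 at 143.5.

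Within each genotype the 4 genes had the same array at one end. Wild-type array 3 was the lowest wild-type array for all 4, as it was for 40.1% of tested probe sets. Relative to the wild-type mean it stood at -0.65 for hrg-1, -1.08 for hrg-3, -1.08 for hrg-4 and -0.45 for hrg-7 on the log2 scale. Among the mutant arrays, array 1 was the highest for all 4 genes. Mutant array 3 was the lowest mutant array for hrg-1 and hrg-7. For hrg-4 mutant array 2 was marginally lower, and for hrg-3 the signals of mutant arrays 2 and 3 were too low to be ordered. Mutants below wild-type without overlap and with mutant array 3 the lowest of the mutants was a pattern found for 1.01% of tested probe sets.

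Mutant array 3 stands apart from the other mutant arrays over the whole table. On the first principal component of the tested probe sets, which held 61.8% of the variance, it lay at -13.1, nearer to the wild-type arrays at -50.2 to -23.4 than to mutant arrays 1 and 2 at 46.2 and 74.97. On the second, which held 12.7%, mutant array 3 lay at -40.6, apart from all other arrays at -5.17 to 19.2. The hrg genes were ordered differently from the first component. In mutant array 3, hrg-7 stood at -2.98 relative to its wild-type mean on the log2 scale, and 0.0517% of tested probe sets lay lower in that array. The corresponding values in mutant array 3 were -2.48 and 0.148% for hrg-1, and -1.75 and 0.370% for hrg-4. In mutant array 2 the values were -2.69 for hrg-7, -1.96 for hrg-1 and -1.80 for hrg-4. There 2.25% of tested probe sets lay below hrg-7, 5.54% below hrg-1 and 6.51% below hrg-4. For hrg-4 the shares thus differed between the 2 arrays at nearly the same value, so they also reflect the spread of all probe sets in each array. Without mutant array 3 the differences were -2.30 for hrg-7, -1.83 for hrg-1, -1.33 for hrg-4 and -3.41 for hrg-3.

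The targeted gene has 2 probe sets, and the brighter one was lower in every mutant array, at 384.6, 458.7 and 233.8 against 1204, 1113 and 939.6 in wild-type. It did not pass the adjusted threshold (limma adjusted p = 0.0717), and for the dimmer zip-3 probe set the genotypes overlapped (0.393). The position of these probes relative to the lesion was not known from the labels.

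Markers of the intestine, where hrg-1, hrg-3, hrg-4 and hrg-7 are known to be expressed, had a median difference near 0. All 13 of 13 intestine markers were bright enough to be tested, 6 lay above and 7 below 0 in log2 difference, with a median of -0.06. At the adjusted threshold 0 rose and 0 fell (limma), where 0.154% of all genes tested passed in either direction and their median was 0.03. With an unadjusted limma p under 0.05, 1 was higher and 0 lower, where 10.1% of tested probe sets were higher and 9.27% lower. Summed over the 13 genes, the signal ran from 40574 to 47899 in wild-type and from 31477 to 57125 in the mutant. The elt-2 gene, which encodes the GATA factor of the differentiated intestine, read 392.9, 535.0 and 225.4 in wild-type and 501.8, 481.9 and 305.4 in the mutant (log2 difference 0.21 ± 0.36). The marker elt-7 read 414.2, 428.3 and 442.5 against 660.5, 476.5 and 188.1 (-0.14 ± 0.43). The markers act-5, pept-1, pho-1, pgp-3 and ifd-2 lay below 0 too. The esterase gene ges-1 differed by 0.31 ± 0.26 and the transporter gene pgp-1 by 0.99 ± 0.30 (limma adjusted p = 0.177). cpr-1, a cathepsin B-like protease gene, differed by 0.89 ± 0.47 and the intermediate filament gene ifc-2 by -0.21 ± 0.14. The intestine list was lowest in mutant array 3, with array medians of 0.09, 0.39 and -0.35 in mutant arrays 1, 2 and 3. In the same mutant arrays hrg-7 stood at -1.90, -2.69 and -2.98. The part of the intestine list in the hrg values was not tested. Genes of the intestinal lysosome-related organelles, in whose membrane HRG-1 acts, had a median of 0.28 over 9 tested genes, with 0 called in either direction (limma) and 0 at an unadjusted p under 0.05. In that list the adaptor subunit genes apb-3 and apd-3 differed by 0.36 ± 0.21 and 0.47 ± 0.29. Without mutant array 3, 3 intestine markers were called higher and 0 lower, cpr-1, ges-1 and pgp-1, and glo-3 was called higher among the organelle genes (limma), where 16.9% of all genes tested were called.

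Array medians of the other tissue lists, relative to the wild-type mean of each gene, are given beside the hrg values. Sperm markers were at medians of -1.75, -2.48 and -0.47 in mutant arrays 1, 2 and 3, with 9 of 9 tested genes negative. Germline and oocyte markers were at -1.07, -1.87 and -0.20, with 12 of 12 negative. The vitellogenin genes, which encode yolk proteins made in the intestine, were at -0.68, -1.52 and 0.02, with 5 of 5 negative. These 3 lists were nearest to wild-type in mutant array 3. The median of the epidermis markers was higher in all 3 mutant arrays, at 1.81, 1.61 and 1.09. Of the 12 genes 10 lay above wild-type without overlap, where 14.1% of tested probe sets did. The other 2 were lower, sqt-3 by -0.36 ± 0.13 without overlap and elt-1 by -0.49 ± 0.29 with overlap. Neuron markers were at 0.06, 0.21 and 0.35 in mutant arrays, against -0.08, 0.00 and 0.13 for wild-type. Muscle markers were at -0.10, 0.16 and 0.56 in mutant arrays, against -0.28, -0.13 and 0.54 for wild-type, so for both lists the genotypes overlapped. At the adjusted threshold 0 genes of these 6 lists passed (limma). Over all tested probe sets 9.27% were lower and 10.1% higher at an unadjusted p under 0.05. At that level 8 sperm, 6 germline and 1 of the vitellogenin genes were lower, 10 epidermis genes were higher and 1 lower, and 1 neuron and 2 muscle genes were higher. In sperm, ssp-10 differed by -1.63 ± 0.41 and msd-2 by -1.60 ± 0.42, in the germline pgl-1 by -0.95 ± 0.30 and pie-1 by -1.29 ± 0.41, and in the epidermis nhr-25 by 1.74 ± 0.24 (limma adjusted p = 0.0545) and noah-1 by 1.97 ± 0.32 (0.0713). Among yolk genes vit-6 differed by -0.68 ± 0.28 and vit-4 by -0.69 ± 0.30, and in neurons unc-13 by 0.60 ± 0.20 and unc-64 by 0.47 ± 0.23. In muscle unc-22 differed by 1.28 ± 0.29 and myo-3 by 0.91 ± 0.31. Of the 8 muscle markers 6 lay above 0 and 2 below, myo-1 at -0.33 ± 0.53 and myo-2 at -0.21 ± 0.46. Without mutant array 3, 8 epidermis markers and 1 muscle marker, unc-22, were called higher, and 8 sperm, 9 germline and 4 vitellogenin genes were called lower (limma), where 16.9% of all genes tested were called in either direction. The part of these shifts in the hrg values was not tested.

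**Figure D2:**
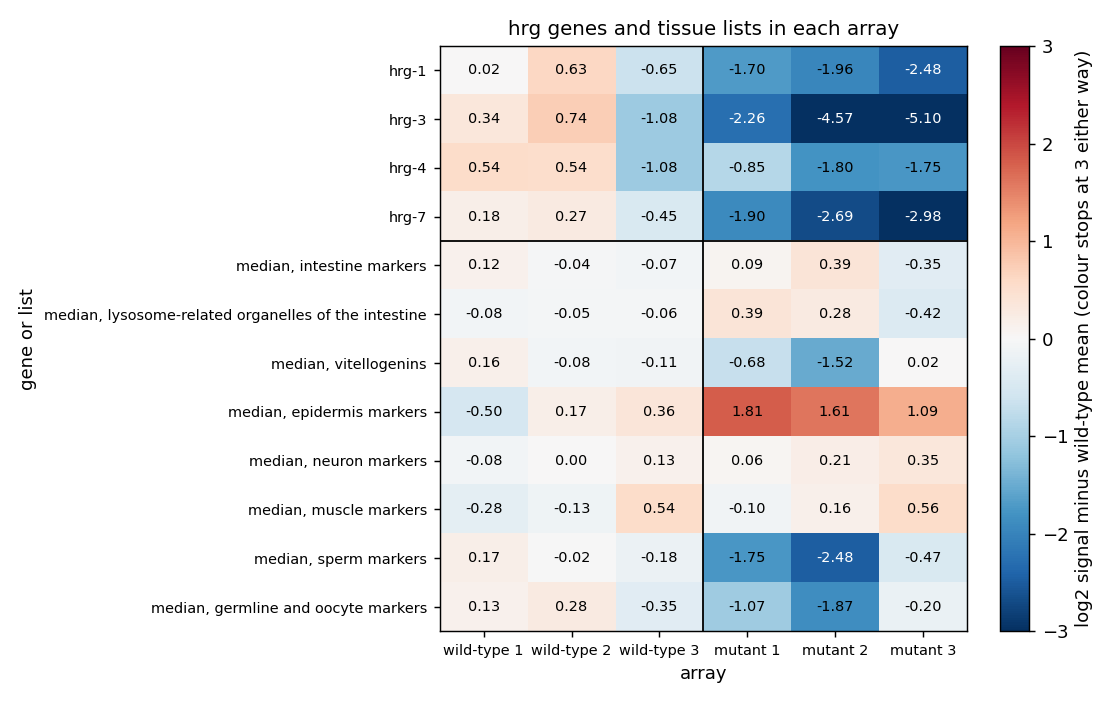
Colour and printed number give the log2 signal minus the wild-type mean in each array (columns), for the 4 hrg genes and for the median of each tissue list (rows). The hrg genes reach their lowest values in mutant arrays 2 and 3, down to -2.98 for hrg-7 and lower still for hrg-3, whose signals there are under the filter, while the sperm, germline and vitellogenin medians are near 0 to -0.47 in mutant array 3 and lowest in mutant array 2.

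Of the other known heme transport genes, 0 of 4 passed the adjusted threshold (limma). With an unadjusted limma p under 0.05, 1 was higher, hrg-9, and 1 lower, the exporter gene mrp-5. Over all tested probe sets 10.1% were higher and 9.27% lower at that level. The brighter probe set of hrg-9 was higher and that of mrp-5 lower in all mutant arrays. Without overlap, 14.1% of tested probe sets lay above wild-type and 8.8% below. mrp-5 encodes the ABC transporter that exports heme from the intestine. Its brighter probe set read 3054, 3696 and 2352 in wild-type and 2268, 2102 and 1463 in the mutant. The groups were apart by a narrow margin, and wild-type array 3 and mutant array 3 were again the lowest of their genotypes. The mrp-5 log2 difference was -0.64 ± 0.24 and did not pass (limma adjusted p = 0.215, and 0.0437 to 0.492 over 17 alternatives). The dimmer mrp-5 probe set differed by -0.82 ± 0.34 and its groups overlapped (0.244).

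hrg-9 encodes a TANGO2-like protein that mobilises heme from storage compartments. Its brighter probe set read 92.0, 108.3 and 52.6 in wild-type and 350.8, 299.8 and 151.0 in the mutant, and every mutant array was above every wild-type array. The log2 difference of hrg-9 was 1.64 ± 0.41 (limma adjusted p = 0.149). The dimmer hrg-9 probe set read 79.6, 54.7 and 72.3 against 227.1, 144.6 and 128.4, again without overlap, and differed by 1.25 ± 0.31 (0.148). Neither probe set passed in the fit of the 6 arrays with equal weights. The brighter one differed by 2.01 and passed without mutant array 3 (limma adjusted p = 0.0118), where 16.9% of all genes tested were called. With array weights the brighter one differed by 1.93 and passed (limma adjusted p = 0.00233). The related gene hrg-10 had means of 328.3 ± 91.6 for wild-type and 368.6 ± 116.2 for mutant arrays (SD, n = 3 each), a log2 difference of 0.16 ± 0.31 (0.822). fecl-1, which encodes a ferrochelatase-like protein, averaged 1390 ± 119 and 1400 ± 177, a log2 difference of 0.01 ± 0.17 (0.988).

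**Figure D3:**
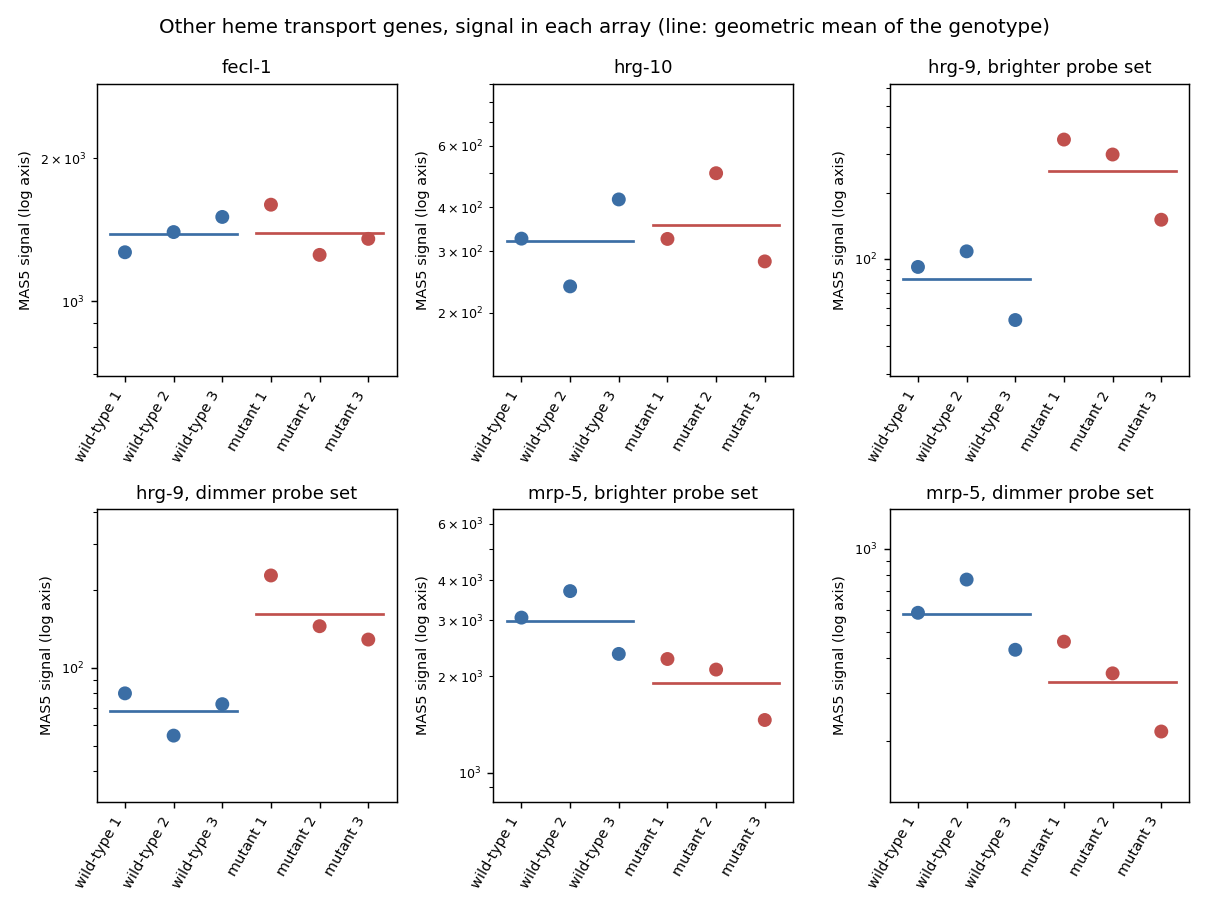
MAS5 signal (log axis) of the other heme transport genes in each wild-type (blue) and mutant (red) array, with a line at the geometric mean of each genotype and a panel for each probe set. Both hrg-9 probe sets are higher in all mutant arrays, and hrg-10 and fecl-1 overlap between genotypes. For mrp-5 the brighter probe set is lower in all mutant arrays and the dimmer one overlaps, with mutant array 3 at the bottom of both.

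Genes of DBL-1 signalling, the BMP-like pathway through which HRG-7 has been linked to neurons, were higher on average without passing the threshold singly. Of 14 tested genes 13 lay above 0 in log2 difference and their median was 0.51, where 5475 of all 10369 genes tested lay above 0 and their median was 0.03. At the adjusted threshold 0 rose and 0 fell (limma), while 5 were higher and 0 lower with an unadjusted p under 0.05, where 10.1% of tested probe sets were higher. dbl-1 itself, the ligand gene, read 94.8, 82.4 and 108.7 in wild-type and 169.6, 166.4 and 171.7 in the mutant. All mutant arrays were above all wild-type arrays, and the dbl-1 difference was 0.84 ± 0.23 (limma adjusted p = 0.159). The zinc-finger cofactor gene sma-9 differed by 0.56 ± 0.18 (0.188), the Smad gene sma-4 by 0.54 ± 0.19 (0.198) and lon-1, another gene of the list, by 0.52 ± 0.19 (0.215). Listed genes were counted whether they promote or oppose the pathway, so the median gives no direction of signalling. Many of these genes are expressed in the epidermis, whose markers were higher in the mutant arrays, and its part in these values was not tested. Of the 14 genes 4 were called higher without mutant array 3, sma-9, the Smad gene sma-3 and the receptor genes daf-4 and sma-6 (limma), where 16.9% of all genes tested were called in either direction.

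Iron genes were also followed, since heme carries iron. Over 10 tested genes of iron handling the median log2 difference was 0.16, and 0 passed in either direction, also at an unadjusted p under 0.05 (limma). The mean of the ferritin gene ftn-1 was 228.6 ± 33.8 for wild-type and 483.5 ± 260.5 for mutant arrays, with mutant array 3 at 202.8 (log2 difference 0.91 ± 0.45, limma adjusted p = 0.314). Without mutant array 3 the ftn-1 difference was 1.44 and passed (limma adjusted p = 0.00908), as did the aconitase gene aco-1, both higher. These are 2 of 10 iron genes, a share near the 16.9% of all genes called in that fit. The scaffold protein gene iscu-1 differed by 0.24 ± 0.23 and the ferroportin gene fpn-1.2 by 0.54 ± 0.56.

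Genes for proteins that use heme lay more often above 0 than below, though the largest differences were negative. Over 16 tested genes of heme-dependent enzymes and mitochondrial heme handling, 12 lay above 0 in log2 difference, with a median of 0.25. Of all 10369 genes tested 5475 lay above 0, with a median of 0.03. At the adjusted threshold 0 rose and 0 fell (limma), while 3 were higher and 1 lower with an unadjusted p under 0.05, against 10.1% and 9.27% of tested probe sets. The heme A synthase gene cox-15 differed by 0.45 ± 0.17 and the tryptophan dioxygenase gene tdo-2 by 0.46 ± 0.18. The peroxidasin gene pxn-2 differed by 0.64 ± 0.25, and the peroxidase gene skpo-3 by -0.75 ± 0.27. The largest differences of the list were those of skpo-1 at -1.53 ± 0.71 and cyc-2.2 at -1.26 ± 0.55, both with overlapping groups. Without mutant array 3, 2 of the 16 were called higher, ctl-2 and cytb-5.1, and 3 lower, cyc-2.2, skpo-1 and skpo-3 (limma). In that fit 16.9% of all genes tested were called. Of the 33 globin genes 7 were bright enough to be tested, with a median of 0.23 and 0 past the adjusted threshold or at an unadjusted p under 0.05 (limma). Among globins glb-1 differed by 0.86 ± 0.41 and glb-11 by 0.61 ± 0.30.

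The aspartic proteases, the family that HRG-7 resembles, had a median near 0. Over 10 tested asp genes the median log2 difference was -0.05, with 3 positive and 7 negative, and that median was 0.08 without mutant array 3. At the adjusted threshold 0 rose and 0 fell, and 0 had an unadjusted p under 0.05 (limma). asp-8 differed by 1.03 ± 0.48, with mutant signals of 2281, 1239 and 545.2 that lay on both sides of the wild-type mean of 569.6. The lysosomal protease gene asp-4 differed by -0.28 ± 0.14 and lay below wild-type without overlap, as did 8.8% of tested probe sets. Without mutant array 3, asp-8 was the 1 asp gene called, higher (limma), where 16.9% of all genes tested were called.

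**Figure D4:**
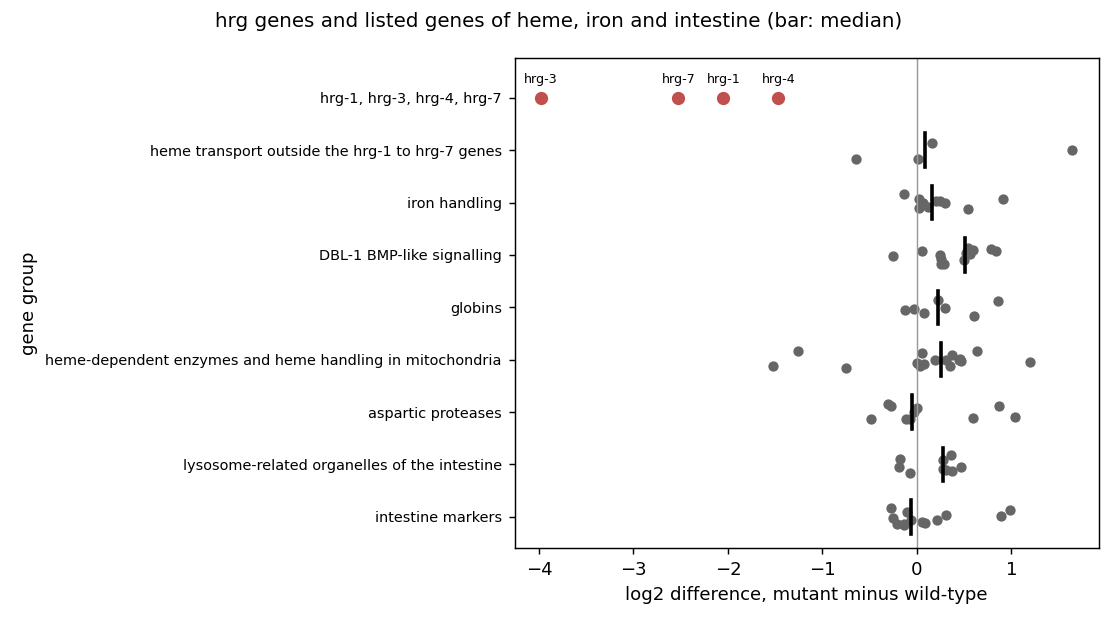
Log2 difference between genotypes (mutant minus wild-type) for the 4 hrg genes (red) and for each tested gene of the heme, iron, signalling, protease and intestine lists (grey), with a bar at the median of each list. The hrg genes lie between -3.98 and -1.47, and 1 gene of the plotted lists, skpo-1 at -1.53, lies in that range; bars show list medians of -0.06 to 0.51.

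The pattern of hrg-7 over the 6 arrays was compared with that of each tested probe set by Pearson's r of log2 signal, as a description. Probe sets that separate the genotypes share high r with hrg-7 by construction, and 0.525% of tested probe sets reached 0.9. The 6 named genes most like hrg-7 were lap-2, a leucine aminopeptidase gene, at 0.99, dct-11 at 0.99, Y69A2AR.25 at 0.99, R193.2 at 0.98, atrn-1 at 0.98 and hrg-1 at 0.98. hrg-1 thus held rank 6 among all tested probe sets. hrg-3, which was not ranked because it did not pass the filter, had r = 0.98 to hrg-7, and hrg-4 had 0.90 at rank 75. The r of hrg-3 rests on mutant signals under the filter, down to 2.19, so it is poorly measured. R193.2 read 476.5, 603.2 and 255.1 in wild-type and 148.0, 88.6 and 57.4 in the mutant, and Y69A2AR.25 read 300.1, 320.6 and 187.9 against 86.4, 81.6 and 60.8. lap-2 had the same order of arrays at a smaller size, with a log2 difference of -0.51 ± 0.15. This ranking depends on mutant array 3. Without it 0 of the 6 genes stayed among the 50 most like hrg-7, and 5.65% of tested probe sets had a higher r than hrg-1, whose own r was 0.97.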

How the data were processed

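The deposited values are linear probe set intensity values, for which the submitters' processing notes name Affymetrix Expression Console and MAS5 as the authors' tools, with no version. Every array had a mean of 500.2 without the lowest and highest 2% of values, and array medians ran from 123.9 to 139.1. Precision is limited by the number of arrays. Of 22625 probe sets, 77 were controls. Signals were taken to log2 with no further normalization. Probe sets at or above the 40th percentile of mean log2 (13529) were fitted with limma 3.58.1 in R 4.3.3, with an intensity trend, two-sided, and Benjamini-Hochberg adjustment over all of them at 0.05. The fit was tested on simulated data. The platform annotation gave 1 gene for 20766 probe sets, several for 887 and none for 895, and the WBcel235 gene table changed 0 symbols. The brightest tested probe set stood for a gene in lists, so 10369 genes were tested.

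The hrg genes and the 14 gene lists were chosen with earlier results of these data known. Named genes were the hrg genes, zip-3, all listed heme transport genes, up to 4 genes per list by moderated statistic, and the 6 genes most like hrg-7, with at most 2 per family. The values of elt-2 were added as the defining intestinal marker, and the intestine markers below 0 were named beside it. Lists were described by counts and medians. Alternatives were quantile normalization, median centring, an offset of 16, no filter or the 60th percentile, no trend, robust moderation, array weights, a block for replicate number, 5 arrays in place of 6, probe sets of unshared sequence alone, and averaging the probe sets of a gene. Sequences were not used here.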

Additional observations from a re-analysis of the deposited data

How the results depend on the processing

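The log2 difference of each measured hrg gene stayed negative in all 63 values from the alternatives, from -2.84 to -2.09 for hrg-7, -2.37 to -1.73 for hrg-1, -2.01 to -1.17 for hrg-4 and -4.83 to -2.07 for hrg-3. The number of hrg genes without overlap stayed at 3, except 4 without wild-type array 3 or mutant array 1, and 2 of the remaining 3 without probe sets of shared sequence, which drop hrg-1. The call of hrg-7, from which nothing is read, held in 4 of 16 alternatives. These were an offset of 16, array weights, no shared sequence and leaving out mutant array 3. The 18 probe sets called became 42 with an offset of 16, 29 without shared sequence and 4738 with array weights, which gave mutant array 1 a weight of 5.89 and mutant array 3 a weight of 0.267. Leaving out single arrays gave 0 to 2167, the highest without mutant array 3. Over the 14 lists 0 of 139 tested genes were called. At an unadjusted limma p under 0.05 there were 41, where 2623 of 13529 tested probe sets reached that level. The called genes became 1 with an offset of 16 and 1 without shared sequence, both nhr-25. They became 72 with array weights, the fit with 4738 called probe sets. Without single arrays they were 0 to 47, again highest without mutant array 3, where 16.9% of all genes tested were called. Of the 6 genes most like hrg-7, 0 to 6 stayed among the 50 most alike without single arrays. The replicate block gave 0 called probe sets and 2334 at an unadjusted limma p under 0.05; same-numbered arrays deviated from their genotype means with correlations of 0.02, 0.05 and -0.16, so the numbers were not taken as pairs. The causes of these changes were not tested.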

Other observations

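Other genes on the array carry hrg names, and they are given here after their names and values were seen. hrg-14 read 530.4, 498.1 and 228.6 in wild-type and 245.8, 108.6 and 332.4 in the mutant, with overlapping groups (log2 difference -0.92 ± 0.49, limma adjusted p = 0.342). hrg-11.4 differed by -0.69 ± 0.35 (limma adjusted p = 0.325), with mutant array 3 at 331.2 inside the wild-type range of 269.5 to 485.1. The genes hrg-11.2 and hrg-11.3 differed by -0.06 ± 0.26 and -0.00 ± 0.20. The 3 probe sets of hrg-13 differed by 0.12 ± 0.34, 0.21 ± 0.17 and 0.20 ± 0.21. None of these 7 probe sets passed the adjusted threshold (limma). In hrg-14 and hrg-11.4 mutant array 3 was the highest of the mutant arrays, whereas in hrg-1 and hrg-7 it was the lowest. Mutant array 3 was also the lowest mutant array in hrg-11.2 and hrg-11.3, at 3392 and 8286. The same held for the hrg-13 probe sets that read 139.6 and 958.1 there, and not for the one that read 1254.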
